A study of Drosophila melanogaster with 8 samples.

Results

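The genes for the proteins of the cytoplasmic ribosome were followed in adult heads of the Drosophila Top3b26 mutant and of its w1118 control. Members were all symbols of the count files that begin with RpL, RpS or RpLP and a digit, with the case of the letters kept, since RpL37a and RpL37A are different genes. The rule found 92 of 16727 symbols, of which 54 are named for the large subunit and 38 for the small subunit. Subunits are taken from these names throughout, also for relatives such as RpL24-like and RpLP0-like. It leaves out sta and Rack1, whose products also sit on the small subunit. Of the 92 members, 83 passed the filter on low counts and 9 did not. The series holds 4 libraries labelled Top3b26 and 4 labelled w1118, each made from total RNA of pooled heads of adults aged 1 to 2 weeks, which were kept at 25 °C with 12 h of light and 12 h of dark. Top3b26 is an allele of Top3beta, the gene of a topoisomerase that acts on both DNA and RNA, and was made by remobilizing a P-element. w1118 is the white-eyed stock in which the allele was made, so the white mutation belongs to both backgrounds. The labels do not give the sex of the flies, nor say that the replicates came from separate cultures. The methods of the study describe separately prepared sets of RNA, but in a number other than that of the labelled replicates, so which libraries come from which preparation is not known. The p-values therefore measure the spread between these libraries, which may in part be technical.

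A ribosome holds its proteins in fixed ratio, and their genes are among the most strongly transcribed in growing and non-growing cells alike. In flies most of these proteins are encoded by a single gene each, and loss of a copy of many of them gives the Minute phenotype of slow development and thin bristles. Some have a second gene copy that is used mainly in the germ line. Their mRNAs are short, with short introns that often carry small nucleolar RNAs (snoRNAs), which guide the modification of ribosomal RNA.

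Genes received 4816757 to 6685891 counts per library in Top3b26 and 3301976 to 7591510 in w1118. Levels are given as CPM, the count of a gene scaled to this total, and a floor of 3 counts was 0.395 to 0.909 CPM. The targeted gene ran against the label of a mutant. Top3beta had 214 to 534 counts in the libraries labelled Top3b26, against 134 to 215 in those labelled w1118, and its log2 fold change was 0.90 (quasi-likelihood test in edgeR, Benjamini-Hochberg adjusted p = 0.157). The same edgeR test called Top3beta higher in Top3b26 with a replicate block, which pairs libraries of the same number (0.86, adjusted p = 0.013), within replicates 1 and 2 (1.07, adjusted p = 3.7e-05) and within replicates 3 and 4 (0.64, adjusted p = 0.0051). Every direction below therefore rests on the labels. Replicates 1 and 2 of both genotypes were deposited with a header line and replicates 3 and 4 without it, and libraries of both genotypes resembled each other within these sets. Both sets were therefore also analysed alone. Markers of the eye and the fat body moved with the groups in a different way in each set. The summed level of 8 photoreceptor markers was 2341 and 2179 CPM in Top3b26 replicates 1 and 2, against 43048 and 47758 CPM in w1118 replicates 1 and 2, so these 2 libraries labelled Top3b26 nearly lacked the defining transcripts of the eye. In replicates 3 and 4 it was 22667 and 27834 CPM in Top3b26 and 33963 and 31211 CPM in w1118. The summed level of 6 markers of head fat body was 8905 and 15267 CPM in Top3b26 and 11784 and 8677 CPM in w1118 in replicates 1 and 2. In replicates 3 and 4 it was 7722 and 10303 CPM in Top3b26 and 34880 and 47361 CPM in w1118. The yolk protein genes Yp1, Yp2 and Yp3 made up most of this sum, and the labels do not give the sex. In replicates 1 and 2 their log2 fold changes were 0.05, 0.01 and 0.11, while Lsp2 was called higher at 1.77. In replicates 3 and 4, 5 of the 6 fat body markers were called lower, but to had 0.13. The summed level of 5 muscle markers was higher in Top3b26 in both sets, at 2590 and 2536 CPM in Top3b26 and 1685 and 1902 CPM in w1118 in replicates 1 and 2, and at 6259 and 6645 CPM in Top3b26 and 4875 and 4580 CPM in w1118 in replicates 3 and 4. The sum of 5 glia markers was also higher in both sets, at 1598 to 2489 CPM in Top3b26 and 1404 to 2094 CPM in w1118 over all libraries. Gs2 and Eaat1, the largest parts of this sum, had log2 fold changes of -0.02 and -0.09 in replicates 1 and 2. There alrm and repo were called higher at 1.77 and 0.71, and moody had 0.38 without a call. Neuron markers were present in all 8 libraries, at 6954 to 9488 CPM in Top3b26 and 6517 to 7545 CPM in w1118, and 6 germline and 4 gut markers summed to at most 17.0 and 1.35 CPM in any library. In heads, fewer cells of a type and less RNA per cell cannot be told apart, and the part these markers play in the ribosomal protein values was not tested.

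The 83 tested members were read at a mean of 10.1 to 942 CPM over the 8 libraries, with a median of 381 CPM. Of them, 78 lay between 100 and 1100 CPM and 41 were among the 500 most read genes. The members with the highest mean CPM were RpL3, RpL5, RpL4, RpL7A and RpS3A. Per kilobase of exon the levels reached 1679 CPM for RpL41, which encodes a very short basic peptide, and the median was 423 CPM. The 5 members under 100 CPM were RpL34a, RpS14b, RpL24-like, RpS15Ab and RpLP0-like, each a lesser copy or relative of a member read at a higher level.

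Ribosomal protein genes as a whole took a smaller mean share of the reads in the libraries labelled Top3b26. As a share of library totals, nearly all of the difference lay in replicates 3 and 4, but this depended on the scale. The 92 members took 3.60, 3.49, 2.49 and 2.69% of the gene counts in Top3b26 replicates 1 to 4, against 3.39, 3.84, 3.66 and 3.25% in w1118 replicates 1 to 4. The mean share was 3.07 ± 0.56% in Top3b26 and 3.54 ± 0.26% in w1118 (SD, n = 4 each), a difference of -0.469 percentage points. Leaving out single libraries gave -0.648 (without Top3b26 replicate 1) to -0.278 (without Top3b26 replicate 3). The ranges overlapped, because Top3b26 replicates 1 and 2 lay within the range of w1118. Within replicates 1 and 2 the difference was -0.070 percentage points, and within replicates 3 and 4 it was -0.868. With each share divided by the library's TMM factor, the scaling of the fits below, these differences were -0.376 and -1.19. When each count was divided by the exon length of its gene, which gives long genes less weight, the share was 7.92 ± 0.62% in Top3b26 and 9.56 ± 0.86% in w1118 (SD, n = 4 each). On that scale the difference was about the same in both sets, at -1.70 for replicates 1 and 2 and -1.58 for replicates 3 and 4, although the highest Top3b26 library still lay above the lowest w1118 library.

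**Figure D1:**
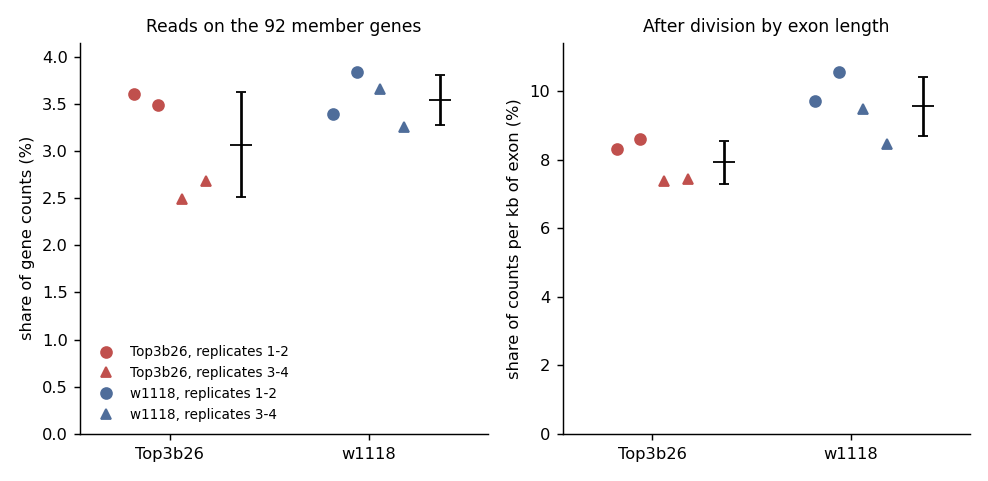
Share of the gene counts that fell on the 92 ribosomal protein genes (left, %) and the same share after each count was divided by exon length (right, %) in each library; circles are replicates 1 and 2, triangles replicates 3 and 4, and bars show the mean and SD of 4 libraries. On the left, Top3b26 replicates 3 and 4 lie at 2.49 and 2.69%, below the other 6 libraries, which lie between 3.25 and 3.84%.

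Each tested member had a lower fitted level in Top3b26, but how many of them passed the test one by one depended on the fit. After scaling with edgeR's TMM factors, which set the bulk of genes level between libraries, all 83 log2 fold changes were negative, from -0.69 (RpL41) to -0.04 (RpL8). Their median was -0.36, beside -0.01 over all 9633 genes tested, of which 51.1% were negative. A gene was called when its adjusted p was no higher than 0.05 and its fold change no smaller than 1.5. Of the 83 members, 1 was called lower, RpS20, and 0 were called higher, where 0.664% of all tested genes were called lower. At the adjusted p alone, RpL38 was added, which makes 2 of 83 members beside 0.685% of all tested genes. With an unadjusted p no higher than 0.05 in the same edgeR test, 41 members were lower and 0 higher, beside 7.34% lower among all tested genes. DESeq2 and limma voom each called 2 members lower and 0 higher, beside 1.79% of all tested genes lower in DESeq2 and 0.654% in voom. At the adjusted p alone these were 15 members beside 2.06% of all tested genes in DESeq2, and 3 members beside 0.675% in voom. With the replicate set as a covariate, edgeR called 5 members lower, beside 4.18% of all tested genes, and 34 at the adjusted p alone, beside 5.83%. Every Top3b26 library lay below every w1118 library for 31 of the 83 members on the TMM scale, and the same held for 4.65% of all tested genes. In CPM, without TMM scaling, it held for 8 members, and the share of all tested genes was not computed on that scale. With library totals alone, 9 members were lower and 0 higher at an unadjusted p no higher than 0.05 in edgeR, beside 4.11% of all tested genes lower. With the replicate block, edgeR called 4 members lower, RpL41, RpS20, RpS21 and RpS29, beside 2.91% of all tested genes, and 8 at the adjusted p alone, beside 3.12%.

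The members moved together from library to library. Relative to each member's mean over all 8 libraries, the median deviation on the log2 scale was -0.00, -0.04, -0.41 and -0.27 in Top3b26 replicates 1 to 4 and 0.06, 0.26, 0.28 and 0.13 in w1118 replicates 1 to 4. In Top3b26 replicate 3 the quartiles of the members lay at -0.50 and -0.29, and in w1118 replicate 3 at 0.20 and 0.36. Top3b26 replicates 3 and 4 were thus low for nearly the whole set, while Top3b26 replicates 1 and 2 sat just below the lowest w1118 library.

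**Figure D2:**
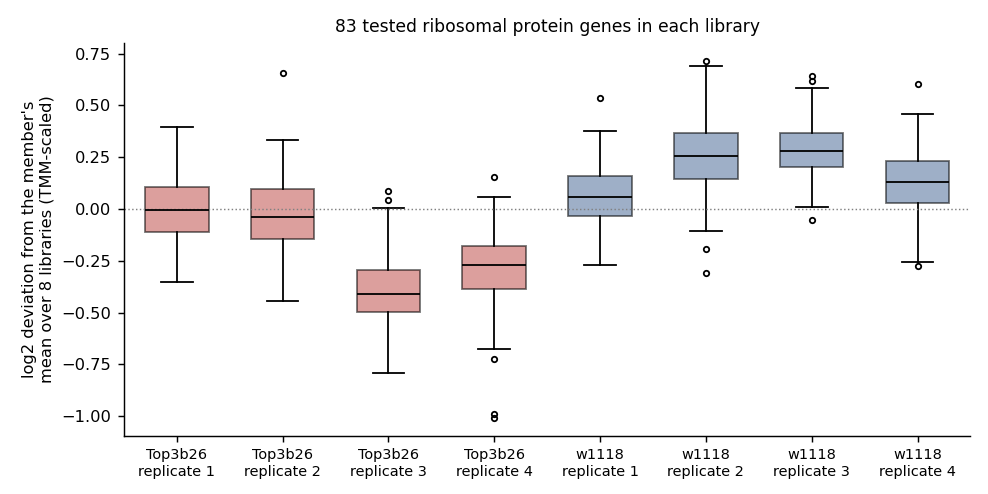
Log2 deviation of each of the 83 tested members from its own mean over the 8 libraries, after TMM scaling, with a box for the quartiles, a line for the median, whiskers to 1.5 times the box and points beyond them. The medians of Top3b26 replicates 3 and 4 are -0.41 and -0.27, and all 4 w1118 medians are above 0.

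Among the small subunit genes, 33 members were tested and their median log2 fold change was -0.34, from -0.61 to -0.15. RpS20 encodes a protein of the head of the small subunit and lies on chromosome 3R from 20822181 to 20823356 (dm6, plus strand, 564 bases of exon). It had 218, 195, 160 and 178 CPM in Top3b26, against 251, 297, 262 and 227 CPM in w1118. The groups did not overlap, and the log2 fold change was -0.59 (SE 0.11; quasi-likelihood test in edgeR, Benjamini-Hochberg adjusted p = 0.043). It was nearly equal in both sets: replicates 1 and 2 gave -0.55, while replicates 3 and 4 gave -0.63. With an offset for exon length the log2 fold change of RpS20 was -0.40 and edgeR's adjusted p was 0.096, so the call did not hold there. RpS29, whose short zinc-binding product also sits in the head of the small subunit, had 497, 473, 433 and 502 CPM in Top3b26, against 621, 763, 656 and 625 CPM in w1118. Here too every Top3b26 library was lower, with a log2 fold change of -0.61 (SE 0.12; edgeR, Benjamini-Hochberg adjusted p = 0.059).

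RpS21 showed the same size of difference with much more spread between sets. Its level was 175, 152, 81.4 and 81.3 CPM in Top3b26 and 200, 226, 141 and 105 CPM in w1118. Both genotypes were lower in replicates 3 and 4, so the log2 fold change of -0.59 had an SE of 0.27, and its Benjamini-Hochberg adjusted p in edgeR's quasi-likelihood test was 0.414, or 0.025 with the replicate block. RpS6, the substrate of the growth-regulated kinase S6k, had 716, 678, 487 and 526 CPM in Top3b26 and 606, 724, 670 and 665 CPM in w1118 (log2 fold change -0.29). RpS3, which lines the mRNA entry channel, had 556, 525, 453 and 511 CPM in Top3b26 and 493, 516, 641 and 606 CPM in w1118 (log2 fold change -0.28). For both, the Top3b26 libraries lay below the w1118 libraries in replicates 3 and 4 only.

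Among the large subunit genes outside the stalk, 47 members were tested and their median log2 fold change was -0.36, from -0.69 to -0.04. RpL38 lies on chromosome 2R from 4515388 to 4516458 (dm6, minus strand, 1013 bases of exon). It had 165, 165, 140 and 149 CPM in Top3b26, against 222, 248, 201 and 170 CPM in w1118. The groups did not overlap, and the log2 fold change was -0.56 (SE 0.11; quasi-likelihood test in edgeR, Benjamini-Hochberg adjusted p = 0.046), short of the fold of 1.5. RpL41 had the most negative value of all members, at 461, 523, 369 and 384 CPM in Top3b26 and 617, 718, 720 and 506 CPM in w1118. Its lowest w1118 library lay below its highest Top3b26 library before TMM scaling, and its log2 fold change was -0.69 (SE 0.14; edgeR, Benjamini-Hochberg adjusted p = 0.077). RpL30 had 186, 205, 100 and 77.4 CPM in Top3b26 and 191, 258, 167 and 159 CPM in w1118. Replicates 1 and 2 gave a log2 fold change of -0.34, while replicates 3 and 4 gave -0.99, the most negative value of any member there.

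At the other end, 4 large subunit genes and RpS2 had the least negative values over all libraries, and for 4 of these 5 members the sets had opposite signs. RpL8, whose product lies near the catalytic centre of the large subunit, had 728, 698, 383 and 425 CPM in Top3b26 and 568, 592, 487 and 435 CPM in w1118. Its Top3b26 libraries thus held both the highest and the lowest values, and the log2 fold change of -0.04 turned to 0.10 when counts were scaled to library totals alone. RpL36, RpL22, RpL24-like and RpS2 were the next least negative, at -0.11, -0.11, -0.13 and -0.15. In replicates 1 and 2 the log2 fold changes were 0.15 for RpL8, 0.23 for RpL36, 0.15 for RpL22 and 0.07 for RpS2. In replicates 3 and 4 they were -0.30 for RpL8, -0.45 for RpL36, -0.42 for RpL22 and -0.51 for RpS2, with adjusted p in edgeR's quasi-likelihood test of 0.077, 0.024, 0.015 and 0.0034 in that order. RpL36 and RpL22 lie near each other toward the end of X, from 628338 to 629483 and from 762560 to 765130 (dm6), and RpL36 had 429, 414, 318 and 279 CPM in Top3b26 and 337, 311, 424 and 334 CPM in w1118. With library totals alone, RpL22, RpL24-like and RpL36 also turned to values just above 0.

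The 3 proteins of the stalk, the flexible arm of the large subunit that recruits elongation factors, had log2 fold changes of -0.31 (RpLP0), -0.49 (RpLP1) and -0.26 (RpLP2). RpLP1 had 512, 556, 296 and 347 CPM in Top3b26 and 536, 624, 559 and 458 CPM in w1118. RpLP2, its partner in the stalk dimer, had 538, 432, 341 and 380 CPM in Top3b26 and 472, 574, 434 and 367 CPM in w1118. None of the 3 was called in the fit over all 8 libraries, while RpLP1 was called lower in replicates 3 and 4 alone.

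**Figure D3:**
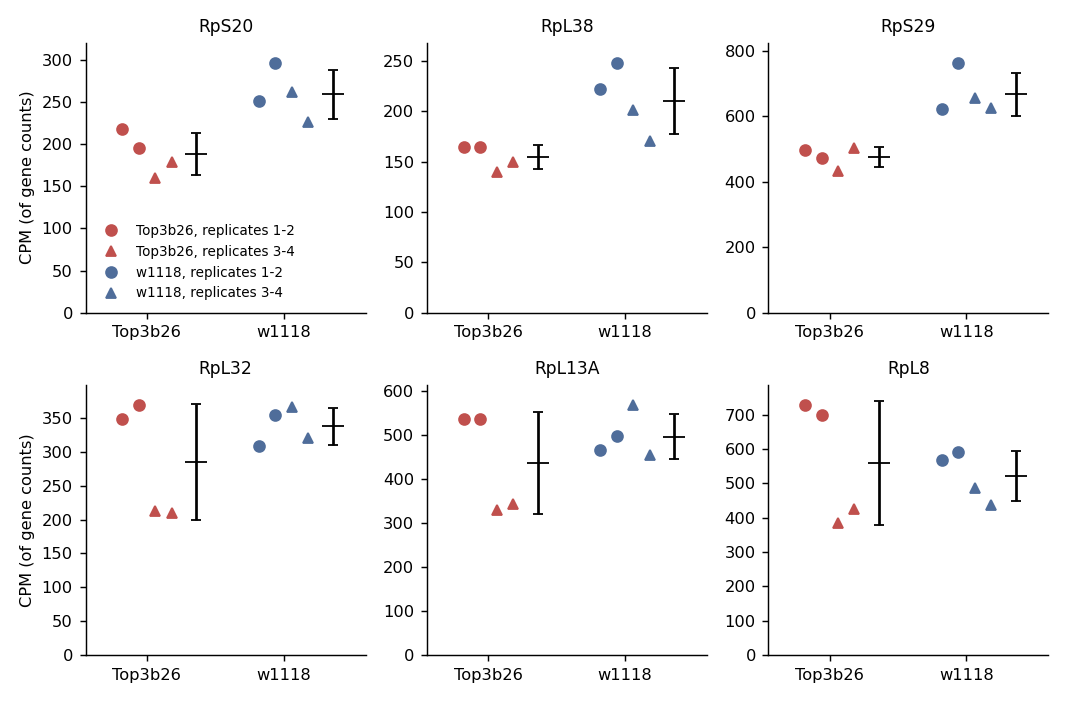
CPM of 6 members in each library, as circles for replicates 1 and 2 and triangles for replicates 3 and 4, with the mean and SD of 4 libraries beside each genotype. RpS20, RpL38 and RpS29 do not overlap between genotypes; RpL32, RpL13A and RpL8 are lowest in Top3b26 replicates 3 and 4, at 210 and 213, 329 and 343, and 383 and 425 CPM.

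The log2 fold change was more negative in replicates 3 and 4 than in replicates 1 and 2 for 79 of the 83 members, beside 53.5% of the genes tested in both sets. In replicates 1 and 2 the median log2 fold change of the members was -0.18, with 73 negative and 10 positive values. There, 2 members were called lower, RpL38 and RpS29, where 7.03% of all tested genes were, and 11 had an adjusted p of at most 0.05 in edgeR, beside 8.94% of all tested genes. In replicates 3 and 4 the median was -0.52 and all 83 values were negative, from -0.99 (RpL30) to -0.07 (RpS15Ab). In that set 26 members were called lower, where 5.95% of all tested genes were. At the adjusted p alone 74 of the 83 were lower, where 8.33% of all tested genes were. No member was called in both sets, beside 1.95% of the genes tested in both, and 11 members were lower in both at the adjusted p alone, beside 2.55%.

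Each set holds 2 libraries per genotype, and the sets were compared directly with the interaction of genotype and set in edgeR. The difference between the sets was called for 14 members, in each case more negative in replicates 3 and 4, where 3.11% of all tested genes were called in that direction. Among them were RpL4, RpL13A, RpL18, RpL22, RpL23, RpL26, RpL32, RpL34b, RpL36, RpL36A, RpL39, RpS2 and RpS25. RpL36A had 266, 309, 170 and 153 CPM in Top3b26 and 281, 286, 356 and 234 CPM in w1118, with log2 fold changes of -0.12 for replicates 1 and 2, and -0.97 for replicates 3 and 4. RpL13A had 536, 536, 329 and 343 CPM in Top3b26 and 465, 498, 569 and 454 CPM in w1118, with log2 fold changes of 0.01 and -0.71 in the same sets. In 11 of the 14, Top3b26 replicates 3 and 4 were the lowest 2 of the 8 libraries in CPM. RpL4 and RpL36 were among those with another order. RpL23, whose exons overlap those of the photoreceptor gene inaD on the opposite strand, had log2 fold changes of -0.06 and -0.74, while inaD itself had -3.65 and -0.83. The photoreceptor markers separated the genotypes most in replicates 1 and 2. The fat body markers other than to did so in replicates 3 and 4. The part of either in the set difference was not tested.

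**Figure D4:**
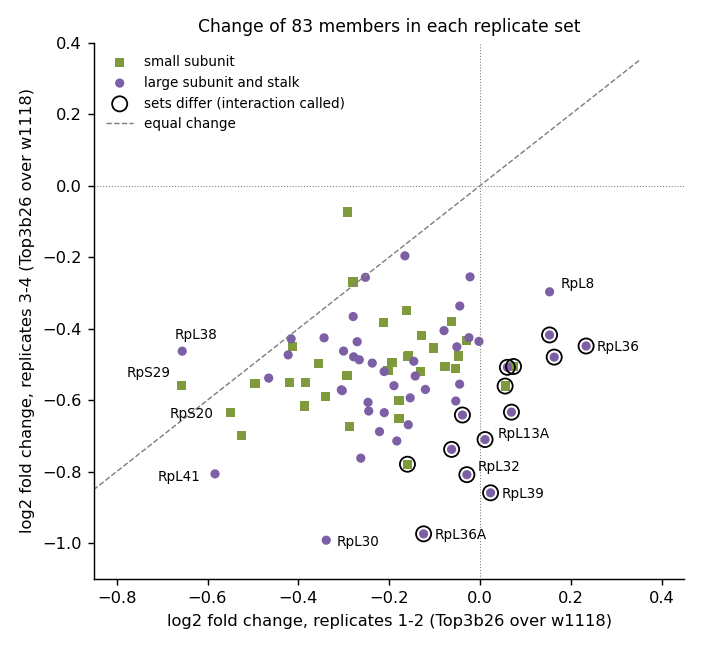
Log2 fold change (Top3b26 over w1118) of the 83 tested members in replicates 1 and 2 (horizontal) and in replicates 3 and 4 (vertical), with squares for the small and circles for the large subunit; rings mark the 14 members whose change differed between the sets, and the dashed line marks equal change. All points lie below 0 on the vertical axis and 79 lie below the dashed line.

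RpL32, also known as rp49 and used by the study as the reference transcript in RT-qPCR, was one of the members that differed between the sets. It lies on chromosome 3R from 30045229 to 30046161 (dm6, minus strand). It had 349, 370, 213 and 210 CPM in Top3b26, against 309, 355, 367 and 321 CPM in w1118. The first 2 Top3b26 libraries lay within the range of w1118 or just above it, and the other 2 lay below every w1118 library. The log2 fold change over all libraries was -0.39 (SE 0.18; edgeR, Benjamini-Hochberg adjusted p = 0.411). Replicates 1 and 2 gave -0.03, while replicates 3 and 4 gave -0.81 (quasi-likelihood test in edgeR, Benjamini-Hochberg adjusted p = 0.00015). The interaction was -0.81 with an adjusted p of 0.0031 from the same edgeR test and adjustment, the lowest adjusted p of any member in that comparison.

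Short genes as a class were lower in the libraries labelled Top3b26, and most members are short. The tested members had a median exon length of 916 bases, against 2141 bases for all tested genes. All tested genes with under 1 kb of exon had a median log2 fold change of -0.17, and those of 1 kb or more had 0.02. The 49 members under 1 kb had a median of -0.39 and the 34 longer ones -0.31, each more negative than the genes of their own length class. In replicates 1 and 2 the members under 1 kb were close to other genes of that length, with a median of -0.21 beside -0.16. In replicates 3 and 4 they were further away, with -0.57 beside -0.16, and 23 of the 49 were called lower, where 11.1% of all tested genes of that length were. With an offset that removes the trend of counts on exon length, the members' median was -0.23 over all libraries, 80 of the 83 values stayed negative, and edgeR called 0 members in either direction, with 26 lower and 0 higher at an unadjusted p no higher than 0.05, beside 6.69% of all tested genes lower. Across members, the log2 fold change rose with the log of exon length with a Pearson r of 0.27 and a Spearman rho of 0.27 (n = 83 genes, all from the same 8 libraries), and with the offset r was -0.21.

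**Figure D5:**
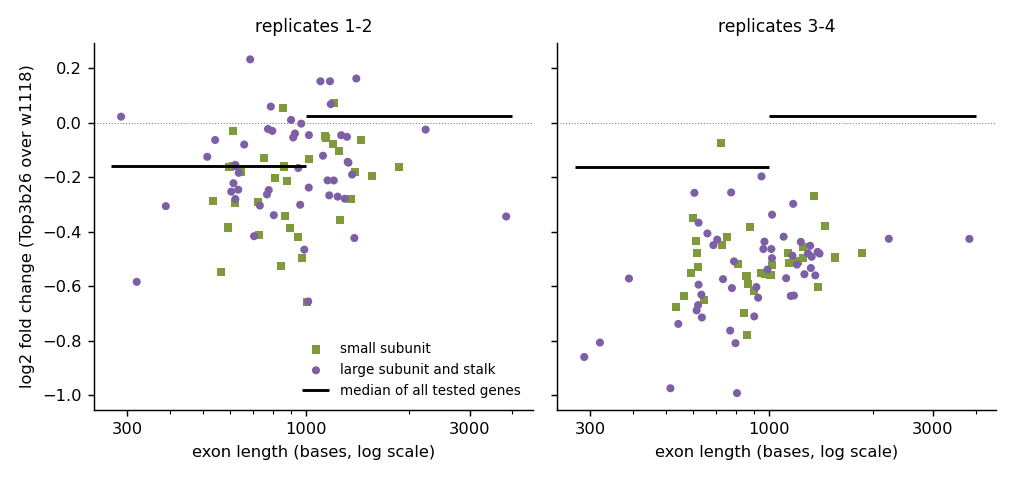
Log2 fold change (Top3b26 over w1118) of the 83 tested members against exon length (log axis) in replicates 1 and 2 (left) and replicates 3 and 4 (right), with squares for the small and circles for the large subunit. Black bars give the median of all tested genes under 1 kb and of 1 kb or more, -0.16 and 0.03 in both panels; on the left the members under 1 kb scatter around their bar and most longer ones lie below theirs, and on the right nearly all members lie below the bars.

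Copies or relatives of the same ribosomal protein gene were read at very different levels in heads. RpS14a and RpS14b lie side by side on X and encode the same protein, and RpS14b took 24.0 ± 1.61% of the pair's counts in Top3b26 and 23.8 ± 2.89% in w1118 (SD, n = 4 each). RpL24-like, whose yeast relative acts in the maturation of the large subunit, took 16.7 to 22.3% of its counts with RpL24 in the 4 Top3b26 libraries and 17.4 to 19.9% in the 4 w1118 libraries. RpL34a, the lesser copy, took 17.5 ± 2.71% of its pair with RpL34b in Top3b26 and 17.3 ± 2.22% in w1118. The difference in each of these 3 pairs was smaller than the SD of the Top3b26 libraries. RpS15Ab took 3.96 ± 0.40% of its pair with RpS15Aa in Top3b26 and 3.24 ± 0.43% in w1118, a difference larger than either SD. Its share was 4.11, 3.62, 4.45 and 3.66% in Top3b26 replicates 1 to 4 and 3.79, 3.34, 3.06 and 2.79% in w1118 replicates 1 to 4, higher in Top3b26 at each replicate number although the ranges overlapped. RpLP0-like took 1.94 ± 0.38% beside RpLP0 in Top3b26 and 1.74 ± 0.13% in w1118. Reads that fit several places equally well were not assigned to a gene, so counts of near-identical copies such as RpS14a and RpS14b are uncertain.

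The 9 members below the filter are copies or relatives of others and had almost no reads in these heads. RpL10Aa, RpL22-like, RpL37b, RpL7-like and RpS28a had 0 counts in all 8 libraries. By counting error only, this allows each at most 0.011 to 0.019% of the counts of its pair (3 counts of the pair total). The limit does not cover reads left out because they fit several places or were ambiguous. Such zeros also occurred elsewhere, in the proteasome gene Prosalpha1 and in mRpL53 of the mitochondrial ribosome. Whether reads of these copies were lost in that way was not tested. RpS19b and RpS28-like had 1 count each and RpS10a had 8. RpS5b, used in the ovary in place of RpS5a, had 31 counts in all, 0.174% of the pair, at a mean of 0.705 CPM in Top3b26 and 0.712 CPM in w1118. RpL7-like and RpS28-like overlap another gene on the same strand, where reads can be left out as ambiguous. Of the 6 germline markers, nos, vas, bam and osk were also near 0, at a mean of at most 0.656 CPM in either genotype, while piwi had 8.4 CPM in Top3b26 and 9.0 CPM in w1118, and aub 2.58 CPM in Top3b26 and 2.47 CPM in w1118.

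The members share features that the rule did not use. Of the 83 tested members, 28 (33.7%) hold at least 1 annotated snoRNA within their bounds, 74 in all, against 0.981% of all tested genes with an annotation. The median log2 fold change was -0.33 for the members that hold a snoRNA and -0.36 for the others. Exons of 30 members overlap those of another annotated gene, 25 of them on the opposite strand, and the 53 members without any overlap had the same median of -0.36 as the whole set. Members lie on all major chromosome arms, and the medians by arm ran from -0.31 on 3L to -0.39 on 2L.

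The study concerned silencing in heterochromatin, and 3 tested members, RpL5, RpL15 and RpL21, lie inside the pericentric blocks that its methods define. These members were picked out after their values had been seen. RpL5 (2L, 22532279 to 22536884 in dm6) had 822, 813, 833 and 958 CPM in Top3b26 and 854, 1023, 1095 and 1139 CPM in w1118, a log2 fold change of -0.39. RpL21 (2L, 22247111 to 22247875) had -0.42 and RpL15 (3L, 27267255 to 27268445) had -0.21. These 3 values lie within the range of the other members, while the 84 tested genes of those blocks had a median of -0.10. RpS3A, the only member on chromosome 4, had 588, 537, 698 and 732 CPM in Top3b26 and 560, 676, 790 and 809 CPM in w1118, and its log2 fold change was nearly the same in both sets, at -0.28 for replicates 1 and 2 and -0.27 for the other set.

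Other genes of the translation machinery differed in how closely they followed the ribosomal proteins. The products of 4 listed genes, sta, Rack1, bic and Nacalpha, belong to or bind the ribosome but carry other names. Their median log2 fold change was -0.01 in replicates 1 and 2, while replicates 3 and 4 gave -0.56. In replicates 3 and 4 sta and Nacalpha were called lower, where 5.95% of all tested genes were. The sta gene encodes a small subunit protein and had -0.62 in that set, and Rack1, a scaffold on the head of the small subunit, had -0.51. The 7 listed elongation factors had a median of -0.50 over all libraries. Called lower in replicates 3 and 4 were 5 of them, Ef1alpha48D, Ef1beta, eEF1delta, Ef1gamma and eIF-5A, beside 5.95% of all tested genes. Ef1alpha48D, the main gene of the factor that brings aminoacyl-tRNA to the ribosome, had 3362 ± 360 CPM in Top3b26 and 4662 ± 1565 CPM in w1118 (SD, n = 4 each), with log2 fold changes of -0.22 and -0.87 in the 2 sets. EF2, which moves the ribosome along the mRNA, had 0.07 and -0.27 and was called in neither.

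Initiation factors and the factors that assemble ribosomes stood nearer to the level of all genes. The 22 tested initiation factors had a median of -0.20 over all libraries. In replicates 1 and 2, 1 of them, eIF-4B, was called lower, where 7.03% of all tested genes were. At the adjusted p alone 4 of the 22 were lower there, beside 8.94% of all tested genes. In replicates 3 and 4, 0 were called lower, beside 5.95%, and 4 were lower at the adjusted p alone, beside 8.33%. The 25 listed genes of ribosome biogenesis had a median of -0.09. In replicates 3 and 4, 1 of them, CG7637, was called lower, where 5.95% of all tested genes were. CG7637 had few reads, with 49 counts over the 4 Top3b26 libraries and 102 over the 4 w1118 libraries (means of 2.03 and 4.85 CPM). A further 11 listed genes set ribosome synthesis to nutrients and growth. Of these, Thor, the repressor of cap-dependent initiation, and dm, the fly Myc, were called lower in replicates 1 and 2, at -0.92 and -1.18. In that set 7.03% of all tested genes were called lower. Thor and dm had -0.17 and -0.05 in replicates 3 and 4. The ribosomal protein genes changed less in replicates 1 and 2 than in replicates 3 and 4, and a relation of Thor or dm to them was not tested. The 72 tested genes for proteins of the mitochondrial ribosome had a median of 0.01 in replicates 1 and 2. Replicates 3 and 4 gave -0.21 and 1 gene called lower, beside 5.95% of all tested genes. The proteasome is another large complex with members in fixed ratio, and 35 of its genes were tested over all libraries. The 34 tested in each set had medians of -0.08 and -0.44. In replicates 3 and 4, 4 were called lower, where 5.95% of all tested genes were. At the adjusted p alone 14 were lower there, where 8.33% of all tested genes were. In the edgeR fit over all 8 libraries, 0 of the 176 tested genes of these 7 lists were called, where 0.664% of all tested genes were called lower. At an unadjusted p no higher than 0.05 in that fit, 19 were lower and 0 higher, beside 7.34% of all tested genes lower. DESeq2 called 1 of the 176, Ef1beta, lower, where 1.79% of all tested genes were. With the replicate block, edgeR called 2 of the 176 lower, Ef1beta at -0.68 (Benjamini-Hochberg adjusted p = 0.019) and CG7637 at -1.35 (adjusted p = 0.022). In that fit 2.91% of all tested genes were called lower.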

How the data were processed

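RNA-seq libraries of 8 head samples were analysed. The authors mapped reads to dm6 with TopHat (TopHat2 2.1.1 and SAMtools 1.8 in the submitters' processing notes) and deposited whole-number counts of reads per gene symbol, without normalization and with 1 file per library. The counting tool and its use of strand are not given in the sources used here. The column of w1118 replicate 2 is headed CPM, yet it holds whole numbers with a sum of 3301976 over genes, and it was used as counts. Reads listed as on no gene (43.1 to 48.9% of the reads listed), ambiguous (0.559 to 0.956%) or aligned more than once (16.6 to 30.4%) were left out. The share aligned more than once was 23.7, 24.2, 20.1 and 18.3% in Top3b26 replicates 1 to 4. It was 27.8, 30.4, 16.6 and 16.6% in w1118 replicates 1 to 4, so its direction differed between the sets. The part of this share in the ribosomal protein values was not tested.

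Genotype was tested in R 4.3.3 with the quasi-likelihood pipeline of edgeR 4.0.16, after filterByExpr and TMM scaling, with Benjamini-Hochberg adjustment over all genes tested. A call needed an adjusted p no higher than 0.05 and a fold no smaller than 1.5. SE denotes the size of the log2 fold change divided by the root of F. Alternatives were DESeq2 1.42.0, voom in limma 3.58.1, other scalings, no filter, a replicate block, the replicate set as a covariate, each set alone, an exon length offset, and each library left out. Only the edgeR test of genotype over all 8 libraries was checked on simulated counts. Those had less spread than the main fit found here and no replicate sets. The other fits were not simulated. The replicate block paired libraries by the numbers of the labels. Deviations of same-numbered libraries from their genotype means correlated at 0.587, 0.439, 0.510 and 0.647, and those of different numbers in the same set at 0.526 to 0.621. These values therefore do not single out the pairing by number within a set. Replicates differed beyond counting noise (chi-square per degree of freedom of at least 5.13).

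Symbols were matched to the Ensembl annotation of dm6 (12512 by symbol, 4062 by an older symbol, 153 not matched), and exon length counts each base covered by any exon of a gene. Named singly were RpL32, the 5 members with the highest mean CPM, called members, the 5 most and 5 least negative, the stalk, RpS6, RpS3, paralogous copies, members with 0 counts and those with a called interaction. The members, gene lists and tests were chosen with earlier results of these data known. The pericentric blocks were added after the values were seen. Floors cover counting error only. The values of 1 member are not reported here.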

Additional observations from a re-analysis of the deposited data

Results flagged for a closer look

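The largest group of results for a closer look is the 14 members whose genotype difference was not the same in the 2 replicate sets, by edgeR's test of the interaction of genotype and set. The interaction on the log2 scale, where a negative value means a more negative difference in replicates 3 and 4, was -0.91 for RpL39, -0.88 for RpL36A, -0.81 for RpL32, -0.75 for RpL13A, -0.73 for RpL26, -0.71 for RpL36, -0.70 for RpL23 and -0.67 for RpL4. It was -0.65 for RpS25, -0.63 for RpL34b, -0.61 for RpS2, -0.60 for RpL22 and -0.60 for RpL18. The median interaction was -0.37 over the 83 tested members and -0.06 over all genes.

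In the CPM of single members, 2 of 90 groups of 4 libraries held a library far from the other 3, where chance gives about 1 in 20. RpL5 had 958 CPM in Top3b26 replicate 4, and RpL7 had 704 CPM in w1118 replicate 2.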

How the results depend on the processing

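The negative median of the members held in every fit run, while the count of called members did not. In replicates 1 and 2 alone the median was -0.18 and 2 members were called lower, and in replicates 3 and 4 alone these were -0.52 and 26. The replicate block gave 4 members lower (2.91% of all genes) and the replicate set as a covariate 5 (4.18%), limma voom (0.654%), DESeq2 (1.79%) and the adjusted p alone (0.685%) gave 2 each, and 0 were left with median-of-ratios factors, upper-quartile factors, library totals only, scaling without the members, no low-count filter, and the exon length offset with or without the replicate block. Leaving out any 1 library gave 0 called members, with medians from -0.40 (without Top3b26 replicate 1) to -0.28 (without Top3b26 replicate 3), so the call of RpS20 needed all 8 libraries. Library totals alone moved the median of all genes to 0.12 and that of the members to -0.22. The difference in share was -1.64 percentage points per exon length. No member was called higher in any fit.

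Signs turned for 10 members in replicates 1 and 2, among them RpL13A and RpL39, which had -0.33 and -0.31 over all libraries. In that set the log2 fold changes were 0.23 (RpL36), 0.16 (RpL4), 0.15 (RpL22), 0.15 (RpL8), 0.069 (RpL26), 0.074 (RpS2), 0.060 (RpL18), 0.055 (RpS25), 0.023 (RpL39) and 0.011 (RpL13A). With library totals only they were 0.10 (RpL8), 0.036 (RpL36), 0.031 (RpL22) and 0.0055 (RpL24-like), with the exon length offset 0.048 (RpL36), 0.038 (RpL8) and 0.0097 (RpL24-like), and with that offset and the replicate block 0.056 (RpL36) and 0.0075 (RpL8). Leaving out single libraries gave -0.15 to 0.094 for RpL8, -0.17 to 0.015 for RpL36, -0.19 to 0.0028 for RpL22 and -0.33 to 0.016 for RpS2. The cause of these turns was not tested. The share of the lesser copy or relative in each pair has no test. The replicate block kept the call of RpS20, added RpL41, RpS21 and RpS29, and changed no other call of a named member. Depth limits mainly the 9 members below the filter, where 3 counts are 0.395 to 0.909 CPM.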
